A study of Mus musculus with 4 samples.

Results

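The genes examined were 9 genes of the lysosome, 6 proteases (Ctsb, Ctsd, Ctss, Ctsl, Ctsz and Ctsc), the membrane proteins Lamp1 and Lamp2, and the secreted and lysosomal protein progranulin (Grn). They were chosen by symbol, with earlier results of these data known, and were 9 of the 46983 genes counted. They were read in nuclei from the forebrain of male C57Black/6 mice aged 3 months, in 4 libraries. 1 was from sham controls, and the others were labelled 1, 3 and 7 days after MCAO, a permanent occlusion of the middle cerebral artery in which this brain artery is coagulated and cut. Each library pooled 3 hemispheres, so every group was 1 library with no replicate, no test was possible, and each interval below is a 95% interval that covers counting error only. The labels do not settle whether the control tissue was cortex or forebrain hemisphere, nor, since they also speak of intact tissue, whether the control mice were sham-operated, and "sham" is used here as their name. Published nuclei numbers per time point would fit the libraries if both later labels were exchanged. Which order is right was not settled. Of 6 genes of reactive microglia, Spp1, Gpnmb, Plin2 and Lgals3 stood at 553, 251, 329 and 145 CPM (defined below) in the microglia-like nuclei of the library labelled day 3 and at 391, 43.0, 90.0 and 35.2 CPM in that labelled day 7, whereas Igf1 (104 and 196) and Lpl (25.3 and 74.3) were higher in the latter. The share of these nuclei with at least 2 UMIs of the 6 genes was 27.3%, 27.5% and 29.0% at day 1, day 3 and day 7. The paper, by its own clusters, reports a peak of reactive microglia on day 3. Here "day 3" and "day 7" mean the libraries so labelled.

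Lysosomes are acidic compartments in which cells break down what they take up or recycle. Cathepsins B, S, L, Z and C are cysteine proteases and cathepsin D an aspartyl protease, LAMP1 and LAMP2 are the heavily glycosylated proteins that line the lysosomal membrane, and progranulin is taken to the lysosome and cut there into granulins. In the brain the resident phagocytes, microglia, are known for high lysosomal activity, and cathepsin S is known as a myeloid protease. The transcription factors TFEB, TFE3 and MITF bind an E-box, CACGTG, in many lysosomal gene promoters, within a longer motif known as CLEAR, and PU.1 is a factor of myeloid cells.

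The genes lie on 8 chromosomes of GRCm38. Ctsb is at chr14:63122462-63145923 on the plus strand, Ctsd at chr7:142375911-142388038 (minus), Ctss at chr3:95526786-95556403 (plus), Ctsl at chr13:64359337-64370890 (minus), Ctsz at chr2:174427493-174439039 (minus), Ctsc at chr7:88278085-88310888 (plus), Lamp1 at chr8:13159161-13175338 (plus), Lamp2 at chrX:38401357-38456454 (minus) and Grn at chr11:102430315-102437048 (plus). Reads in exons and introns were counted together. The strand used in counting is not given in the sources used here, and all but Lamp2 overlap another gene of the annotation. Fdft1 for Ctsb, Nelfcd for Ctsz, Gm26522 for Ctsc, Grtp1 for Lamp1 and Fam171a2 for Grn lie on the other strand. Hmgb1-ps5 for Ctss lies on the same strand, as do Gm49369 for Ctsd and Gm49230 for Ctsl, which are not among the genes counted. The counts may include some reads of such genes, those of the other strand only if strand was ignored.

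Promoters are shown for Lamp1, Ctsd, Ctss and Ctsc, which hold the letters of such motifs, since the members differed in where they were read. That of Ctsl, which also holds such letters, is not printed. RefSeq promoters of GRCm38.p6, 250 bases before to 50 after the start, were at hand for 8 of the 9 genes, all but Ctsb. The letters CACGTG, which read the same on both strands, stood in 3 of the 8 (Lamp1, Ctsd and Ctsl), against 7.15% of 32851 promoters of the same length. Lamp1 held 4 of them, which 8 promoters of all (0.0244%) did. One of the E-boxes of Ctsd lay within the longer letters TCACGTGA, found in 0.974% of promoters. The letters GAGGAAGT, a form bound by PU.1, were searched on both strands and stood in Ctss and Ctsc, against 3.20% of promoters. The 250 bases before the Lamp1 start (chr8:13158911-13159160, plus strand) are printed with each E-box in capitals, at 61, 45, 28 and 15 bases before the start. For Ctsd, 30 bases around the E-box 98 bases before the RefSeq start are printed in the same way (chr7:142387908-142387937, minus strand), of which the annotated start of its longest transcript lies 211 bases farther out. For Ctss (chr3:95526773-95526802) and Ctsc (chr7:88277923-88277952), both on the plus strand, 30 bases are printed with the PU.1 letters, which lie on the other strand, in capitals. The Ctss match begins 2 bases before the start and the Ctsc match 151 bases before it.
Lamp1: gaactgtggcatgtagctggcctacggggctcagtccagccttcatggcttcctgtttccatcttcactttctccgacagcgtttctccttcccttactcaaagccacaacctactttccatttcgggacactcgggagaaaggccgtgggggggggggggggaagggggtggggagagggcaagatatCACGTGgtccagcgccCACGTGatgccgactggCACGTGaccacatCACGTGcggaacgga
Ctsd: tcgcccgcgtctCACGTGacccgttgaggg
Ctss: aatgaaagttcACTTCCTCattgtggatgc
Ctsc: gtcactaactaACTTCCTCaggccacctcg
A match is a description of these letters and says nothing of whether a factor was bound.

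Between 1019 and 3085 nuclei were kept per library, 7789 in all, with a median of 5383 to 11004 molecules (UMIs, unique molecular identifiers) per nucleus, the day 1 library being the deepest and smallest. Libraries shared at most 3 barcodes of kept nuclei. Nuclei were clustered without the 9 genes, and clusters were named from marker genes, so that classes are called microglia-like and so on. Microglia-like nuclei numbered 86 in sham, 44 at day 1, 189 at day 3 and 93 at day 7, between 4.07% and 6.13% of nuclei and between 1.21% and 2.04% of nuclear UMIs. Their median depths were 1774.5 UMIs in sham, 3564 at day 1, 1721 at day 3 and 1958 at day 7. All 13 listed microglia markers were present in each library, including Cx3cr1, Csf1r and P2ry12, with a summed level of 10029 CPM, that is UMIs per 1000000 UMIs of the same sum, in sham, 6302 at day 1, 8815 at day 3 and 8711 at day 7.

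Without MCAO the lysosomal genes were mostly highest in microglia-like nuclei. Named classes with at least 20 nuclei in a library were ranked, 10 in sham and at day 3, 7 at day 1 and 8 at day 7, and statements on order hold among these. In the sham library Ctss, which cuts proteins also outside the lysosome, stood at 485 CPM in microglia-like nuclei (393 to 592) and at no more than 23.6 CPM in any other class, that of oligodendrocyte-precursor-like nuclei. Ctsd stood at 540.3 CPM (443 to 653), against 114 in ependymal-cell-like nuclei, the next class. Grn stood at 232 CPM (170.1 to 310), against 53.3 in vascular-leptomeningeal-cell-like nuclei. For these 3 genes the microglia-like interval lay above that of the next ranked class in all 4 libraries.

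The remaining cysteine cathepsins were less set apart. Ctsb, a broad endo- and exopeptidase, stood at 278 CPM in sham microglia-like nuclei (209 to 362) and at 107 in vascular-leptomeningeal-cell-like nuclei, with overlapping intervals, and from day 1 on it stood apart from every other ranked class. Ctsz, a carboxypeptidase, was first in all 4 libraries and without overlap in 3, Ctsc, which activates serine proteases of immune cells, was first in 4 and without overlap in 2. Ctsl, an endopeptidase of most tissues, was highest in endothelial-cell-like nuclei in sham (241 CPM, 168 to 335, in 39 nuclei) and stood at 95.9 CPM in microglia-like nuclei (57.8 to 149.8), while in the other libraries microglia-like nuclei were first and 1 of the 3 intervals, that of day 1, stood apart. At day 7 a cluster that stayed unnamed, with 30 nuclei there, held 97.1 CPM of Ctsz (57.5 to 153), which overlaps microglia-like nuclei (135 to 244). It and the unnamed neuronal clusters were not ranked. Classes left out for their few nuclei stood higher than the first in rank for some members at day 1. Endothelial-cell-like nuclei (6 nuclei) held 307 CPM of Ctsl (147 to 565), 369 of Lamp1 (191 to 644) and 154 of Grn (49.9 to 359). Vascular-leptomeningeal-cell-like nuclei (11 nuclei) held 345 CPM of Ctsl (193 to 570) and 276 of Lamp2 (143 to 483), and their 207 CPM of Ctsb (94.8 to 393) overlapped microglia-like nuclei.

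Of the 9 genes Lamp1 was the one least often highest in microglia-like nuclei. Lamp1 was highest in endothelial-cell-like nuclei in sham (227 CPM) and at day 7 (362 CPM), in oligodendrocyte-like nuclei at day 1 (135 CPM) and in microglia-like nuclei at day 3 (237 CPM), and only the day 7 level stood apart from the next class. Lamp2 was first in microglia-like nuclei in all 4 libraries, with 288, 221, 290.2 and 325 CPM from sham to day 7, against 177 CPM in astrocyte-like nuclei of sham, and without overlap in sham and at day 7. Glutamatergic-neuron-like nuclei held 63.5 CPM of Lamp2 in sham and 2.24 CPM of Ctss. Striatal-projection-neuron-like nuclei were last in 4 libraries for Ctsl and Lamp2 and in 3 for Lamp1.

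**Figure D1:**
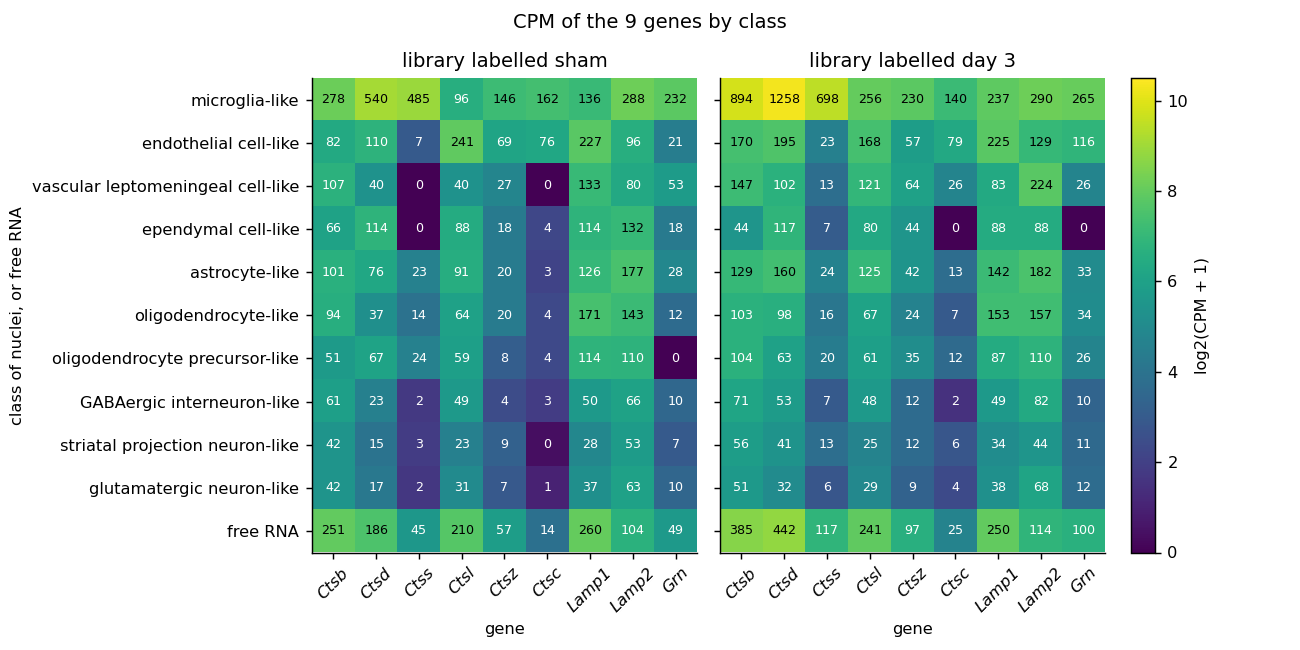
Levels of the 9 genes in CPM (numbers in cells, colour on a log2(CPM + 1) scale) in each class of nuclei and in free RNA, in the libraries labelled sham and day 3. Microglia-like nuclei held the highest level of any nuclear class for 7 of the 9 genes in sham, all but Ctsl and Lamp1, and for all 9 at day 3, where Ctsd reached 1258 CPM.

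Levels of different genes are also given per kilobase of gene span, since intronic reads count. By CPM alone Ctss, Lamp2 and Ctsb stood above Grn in sham microglia-like nuclei. The scale per kilobase lifts short genes such as Grn (6.73 kb), and whether reads grow with span was not tested. On this scale Ctsd (44.5 CPM per kb) and Grn (34.5) led in sham microglia-like nuclei, followed by Ctss (16.4), Ctsz (12.7) and Ctsb (11.8), with Lamp1 at 8.43, Ctsl at 8.30, Lamp2 at 5.22 and Ctsc at 4.93. At day 3 Ctsd stood at 103.7 CPM per kb and Grn at 39.3, and Ctsb, at 38.1, came next to it. Ctsc was the lowest on this scale at day 3 (4.28).

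Microglia-like nuclei, although few, held most nuclear UMIs of Ctss, between 56.2% and 63.1% per library. Their share of the nuclear UMIs was 32.6% to 51.8% for Ctsc, 18.8% to 33.0% for Ctsd, 18.5% to 27.1% for Grn, 17.3% to 26.4% for Ctsz, 6.34% to 22.1% for Ctsb and 2.89% to 11.0% for Ctsl. For Lamp1 and Lamp2 it stayed between 3.09% and 8.03%. Most nuclear UMIs of Ctss were thus read in this class in each library, and those of Ctsc only at day 1.

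Many UMIs of these genes lay outside the nuclei that were called. Droplets of at most 1000 UMIs are taken here as free RNA, released when the tissue was broken up, although some of them may hold shallow nuclei that the calling missed. They carried 40.1% to 47.7% of the UMIs of all genes but 48.5% to 86.0% of those of the members, under 50% only for Lamp2 in sham (48.5%) and at day 1 (49.3%). Relative to the sum of all nuclei the CPM in free RNA was 4.00 to 7.69 times as high for Ctsb, Ctsd, Ctss, Ctsl, Ctsz, Lamp1 and Grn, 1.71 to 3.12 times for Ctsc and 1.29 to 1.48 times for Lamp2. In free RNA, as in any bulk sample, fewer or more cells of a type and less or more RNA per cell cannot be told apart.

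After MCAO the 9 genes differed unequally from sham in microglia-like nuclei. Ctsb, Ctsd and Ctsl were more than 2-fold above sham at day 3, Ctsl also at day 1 and Ctsb also at day 7, Grn was more than 2-fold below sham at day 1, and the other 5 genes stayed within 2-fold of sham at each day. Without replicates, "2-fold" is used here as a fixed size, for genes with at least 20 UMIs in the pair of sums compared, and is no test. Of all genes so examined in this class, 8.44% were at least 2-fold higher and 5.92% at least 2-fold lower at day 1, 7.58% were higher at day 3 and 5.85% at day 7. Against that background 1 of the 9 members was higher and 1 lower at day 1, 3 were higher at day 3 and 1 at day 7. The median log2 ratio of the members was -0.13 at day 1, 0.65 at day 3 and 0.41 at day 7, where that of all genes examined was 0.01, 0.03 and 0.01.

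Among the cysteine cathepsins Ctsb showed the largest difference. It stood at 278 CPM in sham (55 UMIs), 329 at day 1 (79 UMIs), 894 at day 3 (388 UMIs) and 575 at day 7 (147 UMIs). Day 1 overlapped sham, day 3 was the highest of the 4 libraries, and day 7 lay between them, with no overlap of its interval with sham or day 3. The ratio to sham was 1.18 (0.829 to 1.70) in the day 1 library, 3.22 (2.42 to 4.35) in the day 3 library and 2.07 (1.51 to 2.88) in the day 7 library. Under the alternative settings tried the day 3 ratio stayed between 2.53 and 5.77, and the day 7 ratio was 1.73 with libraries merged without integration. Among nuclei of more than 2000 UMIs, 30 in sham and 39 to 67 in the others, the ratios were 1.93 at day 1, 5.77 at day 3 and 3.29 at day 7.

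Ctsl was more than 2-fold above sham at day 1 as well as at day 3. Its level was 95.9 CPM in sham (19 UMIs), 225 at day 1 (54 UMIs), 256 at day 3 (111 UMIs) and 192 at day 7 (49 UMIs). The 3 injury libraries overlapped each other, those of day 1 and day 3 lay above sham, and that of day 7 overlapped it. Ratios to sham were 2.34 (1.37 to 4.19) in the day 1 library, 2.66 (1.63 to 4.59) in the day 3 library and 2.00 (1.16 to 3.59) in the day 7 library, the last just under 2-fold. With 19 UMIs in sham these rest on a small base, and they were 1.79 at day 1 and 1.93 at day 3 in the merged clustering and 1.86 at day 3 with every nucleus thinned to 1000 UMIs. In nuclei of more than 2000 UMIs they were 4.17, 5.00 and 3.68, over 6 UMIs in sham. The day 7 ratio was also past 2-fold with more doublets removed (2.05) and after free RNA was subtracted (2.38), and its lowest was 1.345. The count of members higher at day 7 thus depended on the setting.

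Ctss, Ctsz and Ctsc differed less. Ctss stood at 485, 442, 698 and 669 CPM from sham to day 7, a ratio of 1.44 (1.14 to 1.83) in the day 3 library and 1.38 (1.07 to 1.79) in the day 7 library. Ctsz stood at 146, 154, 230.3 and 184 CPM, with a day 3 ratio of 1.57 (1.03 to 2.47). Ctsc stood at 162 CPM in sham, 246 at day 1, 140.5 at day 3 and 215 at day 7, so that its highest level was at day 1 and its lowest at day 3. Its ratio was 1.52 (0.973 to 2.42) in the day 1 library and 0.869 (0.558 to 1.38) in the day 3 library, and day 3 stood at 0.572 of day 1 (0.393 to 0.832). The day 1 ratio of Ctsc was 2.48 in nuclei thinned to 1000 UMIs.

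Ctsd, the aspartyl protease, had a ratio of 0.501 (0.362 to 0.688) in the day 1 library, just inside 2-fold, against 2.33 (1.89 to 2.89) in the day 3 library and 1.55 (1.22 to 1.97) in the day 7 library. Its levels were 540.3 CPM in sham (107 UMIs), 271 at day 1 (65 UMIs), 1258 at day 3 (546 UMIs) and 837 at day 7 (214 UMIs). No interval overlapped another, and day 3 was 4.65 times day 1 (3.59 to 6.10). The day 1 ratio was under 0.5, past 2-fold lower, in 9 of the 13 alternatives tried, among them 0.398 with merged libraries, 0.454 without the top nucleus and 0.466 after free RNA was subtracted, so that the count of members lower at day 1 would there include Ctsd. It was 0.792 in nuclei of more than 2000 UMIs and 0.873 in thinned nuclei. The day 3 ratio was 3.89 in nuclei of more than 2000 UMIs and 1.85 with merged libraries.

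The levels of both membrane proteins overlapped sham at each day, although the ratio interval of Lamp1 at day 3 lay above 1. Lamp1 stood at 136, 108, 237 and 129 CPM from sham to day 7, with a ratio of 1.74 (1.13 to 2.77) in the day 3 library, and of 0.947 (0.552 to 1.64) in the day 7 library. The day 3 ratio of Lamp1 was past 2-fold in nuclei of more than 2000 UMIs (2.40), with more doublets removed (2.05) and after free RNA was subtracted (2.01). Lamp2 stood at 288, 221, 290.2 and 325 CPM, with ratios of 0.767 (0.518 to 1.14), 1.01 (0.732 to 1.40) and 1.13 (0.795 to 1.61). In thinned nuclei the Lamp2 ratio at day 3 was 1.59.

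Grn was the member farthest below sham at day 1. It stood at 232 CPM in sham (46 UMIs), 100.0 at day 1 (24 UMIs), 265 at day 3 (115 UMIs) and 286 at day 7 (73 UMIs). The day 1 interval, 64.1 to 149, lay below those of the other libraries, which overlapped each other. Ratios to sham were 0.430 (0.251 to 0.720) in the day 1 library, 1.14 (0.803 to 1.64) in the day 3 library and 1.23 (0.838 to 1.82) in the day 7 library. In nuclei of more than 2000 UMIs the day 1 ratio was 0.626.

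**Figure D2:**
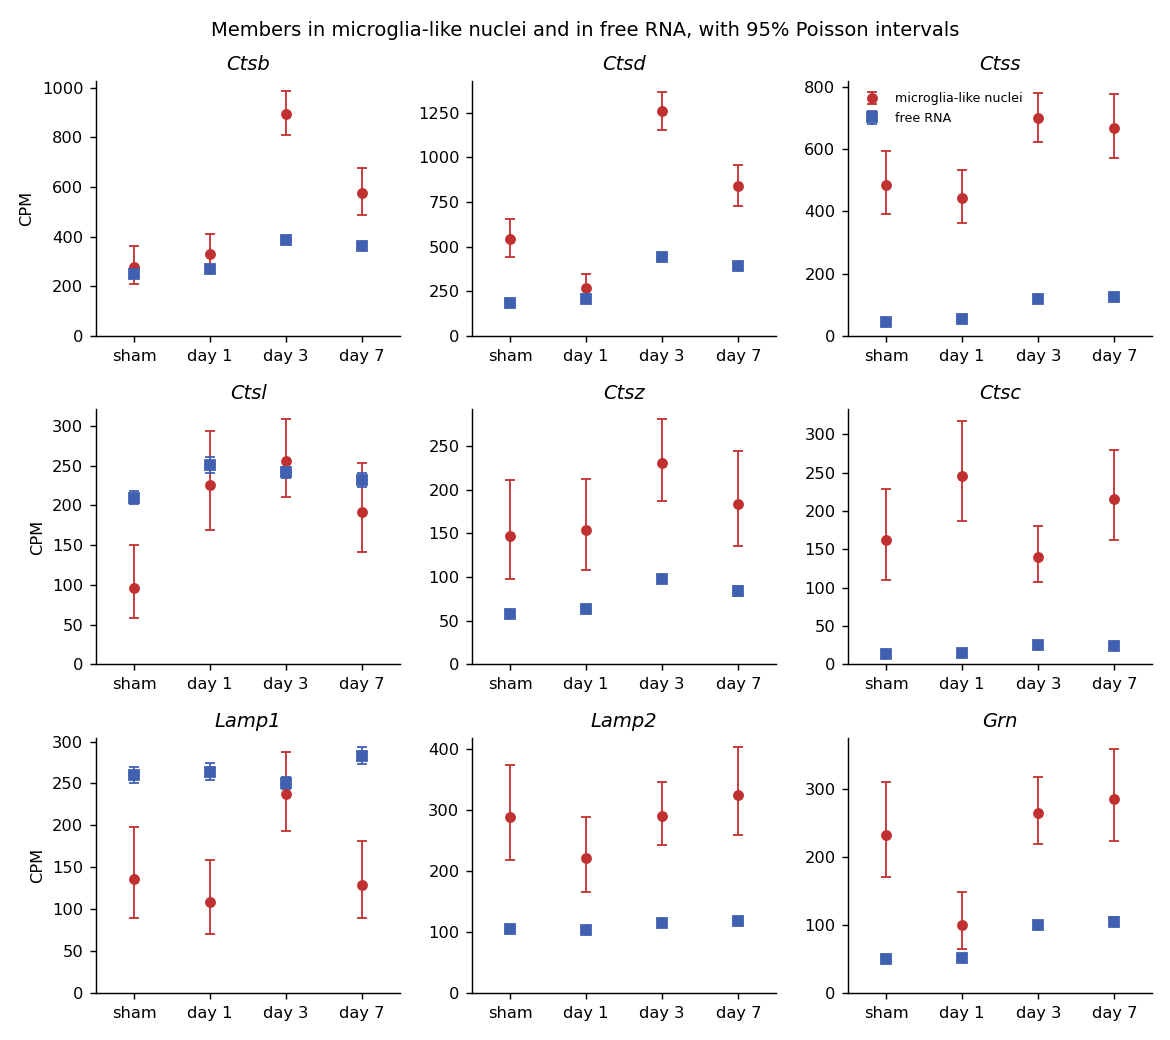
Level of each gene (CPM, vertical axis from 0, with its 95% Poisson interval) in microglia-like nuclei (circles) and in free RNA (squares) of each library. Ctsb and Ctsd in microglia-like nuclei were highest in the library labelled day 3 at 894 and 1258 CPM, while Grn was lowest at day 1 with 100.0 CPM.

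Other cells could enter this class. Of 11 markers of border macrophages and monocytes, 7 had no UMI in the microglia-like nuclei of sham, 6 at day 1, 3 at day 3 and 3 at day 7, and their summed level was 111, 154, 373 and 325 CPM in the same order, most of it F13a1 and Mrc1, with Lyve1 and Ly6c2 at 0 in all 4. The T-cell genes Cd3e, Cd3g and Trac had no UMI in any library. Nuclei with a UMI of a macrophage or monocyte marker numbered 6, 6, 46 and 10. Without them the ratio of Ctsd at day 3 was 1.88 and that of Ctsb at day 7 was 1.87, both under 2-fold, and the day 3 ratio of Ctsb was 2.53. Markers of oligodendrocytes summed to 4828, 4190, 3181 and 5018 CPM in the same nuclei, and those of neurons of any kind to 7812, 10721, 7207 and 7385 CPM.

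Free RNA that entered each droplet was a small part for most members in this class. Taking from each nucleus an equal number of free UMIs, the median over droplets of more than 100 and at most 1000 UMIs, accounted for 4.59% to 6.00% of the Ctsd UMIs, 6.48% to 12% of those of Ctsb, 0.992% to 2.72% of those of Ctss and 8.85% to 29.1% of those of Ctsl. After it was subtracted the ratios of Ctsb, Ctsd and Ctsl at day 3 were 3.53, 2.38 and 3.30, and that of Grn at day 1 was 0.401.

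The share of microglia-like nuclei with at least 1 UMI of a gene was set to a common depth by drawing 1000 UMIs from each nucleus, for which none had to be left out. Ctsd was seen in 37.2% of nuclei in sham (27.0 to 48.3), 36.4% (22.4 to 52.2) in the day 1 library, 64.0% (56.7 to 70.9) in that of day 3 and 46.2% (35.8 to 56.9) in that of day 7, and the interval of day 3 was wholly above sham. For Ctsb the shares were 23.3%, 25.0%, 48.1% and 38.7%, and for Ctsl 9.30%, 25.0%, 20.1% and 16.1%. Ctss was seen in 44.2%, 38.6%, 53.4% and 46.2% of nuclei, all overlapping. In glutamatergic-neuron-like nuclei the same draw gave at most 1.34% for Ctss, a myeloid gene that should be absent there. For Ctsd it gave 0.826% to 4.21%. After the equal subtraction 60.5 of the 85 Ctsd UMIs in these nuclei were left in sham and 124 of 245 at day 3. Without thinning, Ctsd was seen in 64.0% of microglia-like nuclei in sham and 81.5% at day 3, and Ctss in 58.1% and 70.4%.

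**Figure D3:**
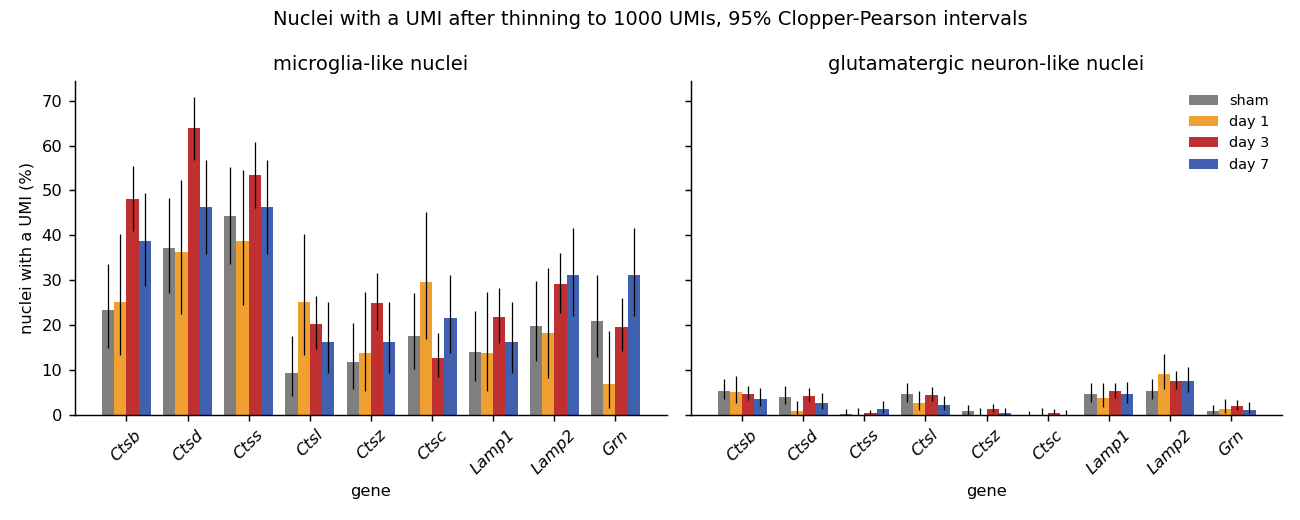
Share of nuclei with a UMI of each gene (percent, vertical axis) after each nucleus was thinned to 1000 UMIs, in microglia-like (left) and glutamatergic-neuron-like (right) nuclei of the 4 libraries, with 95% Clopper-Pearson intervals as lines. In microglia-like nuclei Ctsd was highest at day 3 with 64.0%, and in glutamatergic-neuron-like nuclei no bar passed 9.09%.

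Within microglia-like nuclei some members were higher where genes of the reactive state were read. Nuclei were split by a count, at least 2 UMIs summed over Spp1, Gpnmb, Lpl, Igf1, Plin2 and Lgals3, genes known from phagocytic and lipid-laden microglia. The split gave a range and no type: 2 nuclei of 86 passed in sham, 12 of 44 at day 1, 52 of 189 at day 3 and 27 of 93 at day 7, and 10 nuclei at day 3 held exactly 2 such UMIs and 32 exactly 1. Nuclei that passed were deeper, with a median of 2286.5 UMIs against 1625 at day 3 and 2623 against 1866 at day 7. CPM were compared within each library.

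Ctsb was higher in the nuclei that passed at each day, with 683 CPM against 165 at day 1, 1462 against 550.4 at day 3 and 1035 against 357 at day 7. The ratios were 4.15 (2.56 to 6.87), 2.66 (2.16 to 3.28) and 2.90 (2.06 to 4.08). Ctsd showed ratios of 1.73 (1.03 to 2.91), 1.89 (1.59 to 2.24) and 2.45 (1.86 to 3.24). For Ctsl the ratio was 3.97 (2.21 to 7.34) in the day 1 library, 1.36 (0.915 to 2.01) in the day 3 library and 1.58 (0.855 to 2.89) in the day 7 library, so that its intervals at day 1 and day 3 did not overlap. Grn had ratios of 2.15 (0.885 to 5.24), 2.08 (1.42 to 3.06) and 2.05 (1.26 to 3.34).

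Ctss showed no difference larger than counting error, with ratios of 1.11 (0.720 to 1.68), 0.865 (0.676 to 1.10) and 1.14 (0.820 to 1.58). Ctsz was higher in the nuclei that passed at day 1 (3.16, 1.57 to 6.55), with ratios of 1.20 (0.786 to 1.81) and 1.31 (0.685 to 2.44) later. The ratios of Lamp1 were 1.35, 1.05 and 1.06 and wide intervals, the day 1 one from 0.546 to 3.15. At day 7 Lamp2 (2.38, 1.51 to 3.77) and Ctsc (2.19, 1.24 to 3.86) were higher in the nuclei that passed, while at day 3 their ratios were 0.952 (0.648 to 1.39) and 0.808 (0.448 to 1.41). Nuclei that did not pass held more Ctsb and Ctsd at day 3, 550.4 and 942 CPM, than sham nuclei that did not pass, 242 and 514 CPM. At day 1 they held less, 165 and 220 CPM, and the Ctsb interval overlapped sham. At day 7 they held 357 and 571 CPM, and both intervals overlapped sham.

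**Figure D4:**
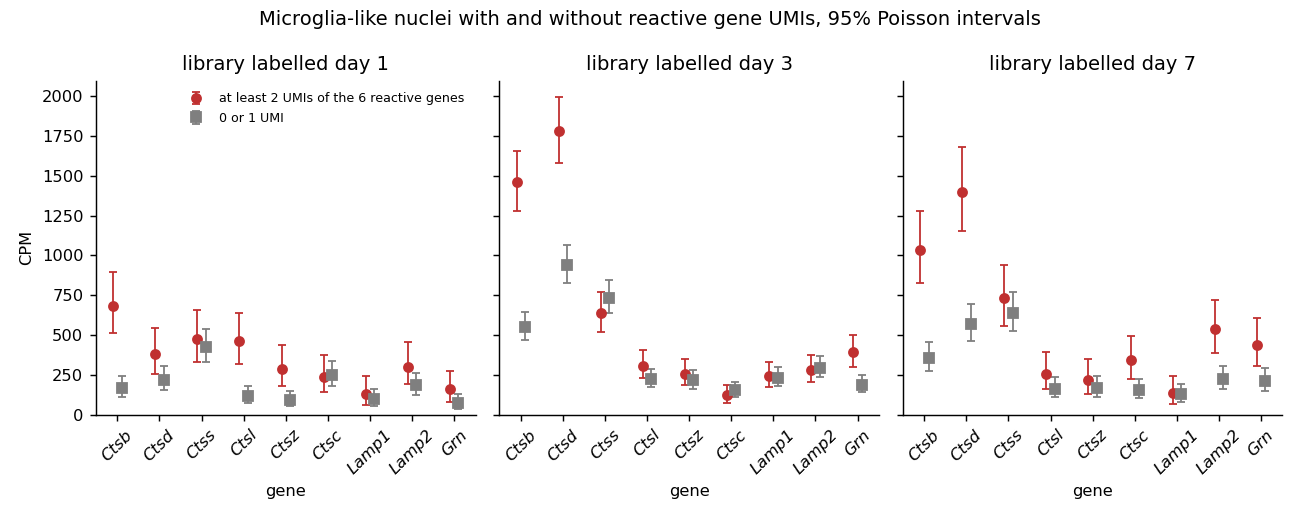
Level of each gene (CPM with 95% Poisson intervals) in microglia-like nuclei with at least 2 UMIs of 6 reactive genes (circles) and in the others (squares), in the 3 libraries after injury. Ctsb and Ctsd stood higher in the former at each day, at day 3 with 1462 against 550.4 and 1780 against 942 CPM, while Ctss did not.

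In free RNA Ctss, Ctsd and Grn were at least 2-fold above sham at day 3 and day 7 and no member was at day 1. Of all genes examined there, 3.45% were at least 2-fold higher at day 1, 2.83% at day 3 and 3.45% at day 7, against 0, 3 and 3 of the 9 members. The median log2 ratio of the members was 0.14 at day 1, 0.76 at day 3 and 0.55 at day 7, beside 0.01, -0.07 and 0.01 for all genes.

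Ctss in free RNA stood at 45.4 CPM in sham, 55.2 at day 1, 117 at day 3 and 126 at day 7. Its ratio was 2.58 (2.35 to 2.85) in the day 3 library and 2.77 (2.50 to 3.08) in the day 7 library, larger than in microglia-like nuclei, where the intervals reached 1.83 and 1.79. Ctsd stood at 186, 205, 442 and 389.8 CPM, a ratio of 2.37 (2.26 to 2.49) in the day 3 library and 2.09 (1.99 to 2.21) in the day 7 library. Grn stood at 49.5, 51.5, 99.7 and 105 CPM, a ratio of 2.02 (1.83 to 2.22) in the day 3 library and 2.12 (1.91 to 2.35) in the day 7 library, and its low level at day 1 in microglia-like nuclei had no counterpart here, where the ratio was 1.04 (0.920 to 1.18).

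Ctsb in free RNA differed less from sham than in microglia-like nuclei, with 251 CPM in sham and 385 at day 3, a ratio of 1.54 (1.47 to 1.61). Ctsl, Lamp1 and Lamp2 stayed between 0.962 and 1.20 times sham at each day. Summed microglia markers in free RNA stood at 152 CPM in sham, 134 at day 1, 249 at day 3 and 307 at day 7, those of border macrophages or monocytes at 9.75, 14.2, 40.7 and 15.8 CPM, and those of neutrophils at 10.1, 36.2, 19.7 and 15.9 CPM. Their part in the results in free RNA was not tested. Counting only droplets of at most 100 UMIs or only those above 100 and up to 1000 left the median of the members between 0.81 and 0.84 at day 3 and between 0.45 and 0.57 at day 7 on the log2 scale, among the 3 alternatives tried.

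**Figure D5:**
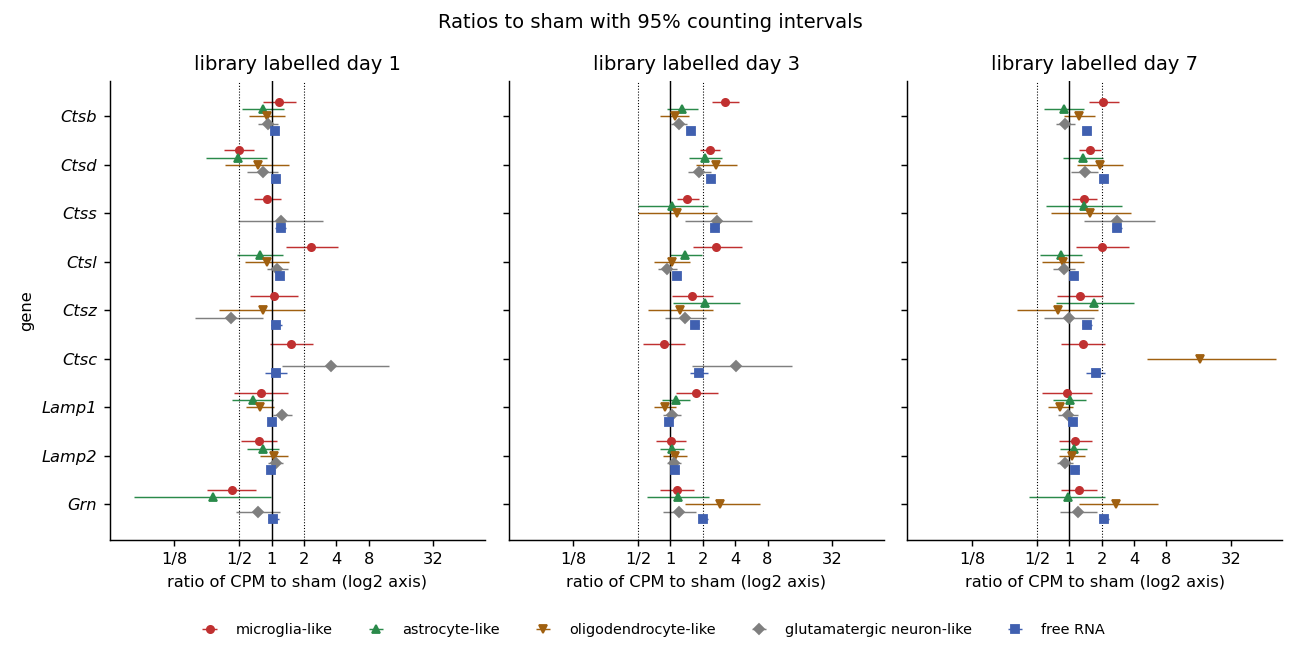
Ratio of CPM to sham (log2 axis, line at 1 and dotted lines at 2-fold) with 95% counting intervals for each gene in 4 classes of nuclei and in free RNA, where at least 20 UMIs were counted. At day 3 Ctsb in microglia-like nuclei stood at 3.22 and in the other groups between 1.10 and 1.54, while Ctsd stood between 1.85 and 2.66 in all 5. Free RNA was not subtracted from the nuclei here.

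Ctsd also differed outside microglia-like nuclei. In astrocyte-like nuclei it stood at 76.1 CPM in sham, 37.1 at day 1, 159.6 at day 3 and 102 at day 7, a ratio of 2.10 (1.49 to 3.01) in the day 3 library. Ctsz reached 2.11 there at day 3 (1.06 to 4.48, from 12 to 33 UMIs). These were 2 of the 8 members examined, with 2.85% of all genes at least 2-fold higher. At day 1, when 6.89% of genes were at least 2-fold lower, Ctsd (0.488, 0.248 to 0.903) and Grn (0.283, 0.0531 to 0.978, from 17 UMIs in sham to 3) were lower in 2 of 6 members. After free RNA was subtracted the Ctsd ratio at day 3 was 1.89. Summed microglia markers in astrocyte-like nuclei stood at 86.0, 130, 219 and 446 CPM from sham to day 7, with 2 of the 13 at 0 in sham and at day 1 and none later. Markers of neurons of any kind stood there at 6509, 10346, 4726 and 6537 CPM, and those of oligodendrocytes at 2369, 1428, 2504 and 2701 CPM. The part of these cells in the results was not tested.

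In oligodendrocyte-like nuclei Ctsd stood at 36.7 CPM in sham, 27.4 at day 1, 97.6 at day 3 and 70.3 at day 7. At day 3 Ctsd (2.66, 1.74 to 4.20) and Grn (2.87, 1.35 to 6.79) were the 2 of 8 members past 2-fold, with 4.70% of all genes. In these nuclei, which were shallow, free RNA would account for 70.7% of the Ctsd UMIs at day 3 under the equal subtraction, against 65.3% in sham, and the ratio after it was 2.32. At day 7, with 2.63% of genes at least 2-fold higher, Grn stood at 2.75 (1.22 to 6.74) and Ctsc at 16.5 (5.30 to 82.8). The Ctsc value was carried by 1 nucleus, which held 37 of the 46 UMIs (80.4%), and sham held 3. Summed microglia markers stood at 85.1, 74.8, 136 and 112 CPM in these nuclei from sham to day 7. Markers of neurons of any kind stood at 3298, 2186, 5132 and 2981 CPM and those of astrocytes at 530, 434, 862 and 605 CPM. Markers of newly formed oligodendrocytes stood at 1217, 1042, 1178 and 2202 CPM. The part of all these cells in the results was not tested.

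In glutamatergic-neuron-like nuclei the members were low, and at day 3 Ctss (2.69, 1.37 to 5.75) and Ctsc (4.11, 1.59 to 13.5) were more than 2-fold above sham, with 1.91% of genes. At day 1 Ctsc was higher (3.56, 1.25 to 12.4, from 5 UMIs in sham to 16), with 3.02% of genes, and Ctsz lower (0.417, 0.196 to 0.833), with 1.48%. At day 7 Ctss was higher (2.80, 1.36 to 6.22), with 2.54% of genes. Summed microglia markers stood there at 77.5, 94.3, 77.6 and 109 CPM from sham to day 7. Ctss stood there at 2.24 CPM in sham, 6.03 at day 3 and 6.30 at day 7, while free RNA held 45.4, 117 and 126 CPM. After the equal subtraction, under which free RNA would account for 32.1 of the 46 Ctss UMIs at day 3, the Ctss ratio was 1.80 at day 3 and 2.93 at day 7. That of Ctsc was then 5.00 at day 1 and 5.09 at day 3, and that of Ctsz at day 1 was 0.243. Ctsd stood there at 17.3 CPM in sham and 32.1 at day 3, and its day 3 ratio after the subtraction was 1.33. Free RNA would account for 49.2% of its UMIs at day 3 and 28.8% in sham. Lamp2, the member highest in these nuclei, stood at 63.5, 69.7, 68.4 and 57.5 CPM from sham to day 7. Other ranked classes also differed in part. In sham and at day 3 Ctsd stood at 15.1 and 40.5 CPM in striatal-projection-neuron-like nuclei and at 22.8 and 53.4 in GABAergic-interneuron-like nuclei. In oligodendrocyte-precursor-like nuclei it stood at 66.9 and 63.4 CPM. Grn stood at 20.6 and 115.8 CPM in endothelial-cell-like nuclei (39 and 74 nuclei). The part of free RNA in these values was not tested.

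The unnamed cluster, whose leading genes were mitochondrial genes, Ttr, Gfap and Aldoc, numbered 16, 28, 90 and 30 nuclei from sham to day 7. Its Ctsd stood at 54.1 CPM in sham (7 UMIs), 52.9 at day 1, 156 at day 3 and 431 at day 7 (80 UMIs), a ratio of 7.98 (3.70 to 20.5) in the day 7 library. All 7 members with enough UMIs were at least 2-fold higher there, where 16.2% of all genes were, over 2 to 11 UMIs in sham. A single nucleus held 40.0% of the Ctsd UMIs and 60.4% of those of Ctsb at day 7. Summed microglia markers stood at 38.6, 75.5, 160.0 and 361 CPM in this cluster, with 10, 6, 0 and 1 of the 13 at 0. Markers of choroid plexus cells stood at 765, 668, 4344 and 20426 CPM and those of oligodendrocytes at 1715, 1239, 3002 and 4567 CPM, so that the make-up of the cluster differed between libraries. The part of these cells in the result was not tested.

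Other lysosomal genes were counted in the same way in microglia-like nuclei. Of a list of 87 lysosomal genes, 48, 64 and 55 had enough UMIs at day 1, day 3 and day 7. Of these 3, 5 and 5 were at least 2-fold higher, beside 8.44%, 7.58% and 5.85% of all genes. The list's counts of 3 of 48 and 5 of 64 were near that share, and at day 7 the count was 5 of 55. At day 1, 1 of the 48 was at least 2-fold lower, beside 5.92% of all genes. The median log2 ratios of the list were -0.15, 0.22 and 0.05. Among genes for proteins of the lysosomal membrane, Cd63, a tetraspanin, stood at 35.4 CPM in sham and 216 at day 3 (6.12, 2.86 to 15.7, over 7 UMIs in sham), whereas Laptm5 stood at 1.39 (0.887 to 2.23) and Scarb2 at 0.988 (0.632 to 1.58).

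Among hydrolases and their activators Psap, the saposin precursor that binds progranulin, had a ratio of 0.503 (0.329 to 0.760) in the day 1 library, 1.75 (1.33 to 2.35) in the day 3 library and 0.750 (0.521 to 1.08) in the day 7 library. The other proteases Lgmn, Ctsh and Ctsa stood at 1.52 (1.25 to 1.86), 1.19 and 0.898 at day 3. Of the cathepsin inhibitors, Cst3, or cystatin C, stood at 1364 CPM in sham and 696 at day 1, a ratio of 0.510 (0.418 to 0.621). Cstb, or cystatin B, had no UMI in sham and 26 at day 3, a ratio of 3.95 if sham is set to the floor of 3 UMIs, which is no lower bound.

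Of 15 proton pump subunits with enough UMIs at day 3, 11 were above and 4 below sham, with 1 at least 2-fold higher, none 2-fold lower and a median log2 ratio of 0.18, where 51.9% of all genes were above sham and 7.58% at least 2-fold higher. Atp6v1b2 stood at 70.7 CPM in sham and 189 at day 3 (2.67, 1.51 to 5.10), Atp6v0b at 717 and 615 (0.858, 0.697 to 1.06), and Atp6v0a1 at 389 and 378 (0.971). Of the genes for sorting and transcription, Gnptab, which makes the mannose 6-phosphate tag of lysosomal enzymes, had a ratio of 4.41 (1.91 to 12.5, over 6 UMIs in sham) in the day 3 library. Sort1, or sortilin, which takes up progranulin, stood at 0.845 (0.571 to 1.27) at day 3. Mitf, one of the factors of the E-box above, had ratios of 0.885 at day 1, 1.68 (1.28 to 2.23) in the day 3 library and 2.47 (1.87 to 3.30) in the day 7 library. In free RNA 0 of 82, 5 of 84 and 5 of 84 genes of the list were at least 2-fold higher at the 3 days, beside 3.45%, 2.83% and 3.45% of all genes. Laptm5 and Cst7, and Cd68 and Acp5, the last pair named after their values were seen, were so at both later days.

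The genes whose levels ran most like each member were sought over 35 class-by-library sums of at least 20 nuclei, among 12938 genes, by Pearson's r of log2(CPM + 10). These sums share 4 libraries, their free RNA and their depth, so r is a description. Csf1r is one of the markers by which microglia-like clusters were named, so its match with Ctss was partly set in advance. Ctss was most like C1qa (0.971), Csf1r (0.970) and Tbxas1 (0.970), Ctsb like Tcirg1 (0.923) and Tgfbr1, and Ctsd like Apobec1 (0.920), Apobec3 and Slc7a7. Ctsl was most like Parp12, Tcn2 and Tln1, Ctsz like Apobec1, Cflar and Adam17, and Ctsc like Slco2b1, Nrip1 and Stab1. Lamp1 was most like Itm2b (0.946), Tmem59 and Rdx, Lamp2 like Tor1aip1, Abca1 and 1700112E06Rik, and Grn like Cltc (0.903), Scoc and Tgfb1. Among the members themselves the nearest pairs were Ctsd with Ctsz (0.923) and Ctsb with Grn (0.912).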

How the data were processed

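Single nuclei from 4 libraries were profiled by droplet-based sequencing. Per the labels and the study's methods, the authors mapped the reads with STAR 2.7.3a (STARsolo) to GRCm38 (mm10) with GENCODE vM8 and counted exonic and intronic reads, and the deposited values are raw UMI counts, not normalised and not filtered, for 46983 genes and 6794880 barcodes per library (23285489 to 42963698 UMIs). Nuclei were called by the emptyDrops approach, coded anew (free RNA from barcodes of at most 1000 UMIs, false discovery rate under 0.001), doublets were scored with Scrublet in scanpy 1.11.5 and the top 0.8% per 1000 nuclei removed, and nuclei were integrated and clustered in Seurat 5.3.0 (SCTransform, 30 principal components, resolution 0.8) without the genes reported on. Tested on simulated droplets, the calling missed many shallow nuclei.

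Clusters were named by the mean log2 fold of their 5 highest markers, at least 1 and 0.5 above that of the next class. A cluster stayed unnamed where another class had more markers among its top 10 genes, or where it was shallow and had no own marker among them. Several deeper clusters, mostly glutamatergic-neuron-like, were named with no own marker there. The limit of that top 10 to genes seen in at least 25% of a cluster's nuclei was set after the clusters had been seen. Without it the larger microglia-like and oligodendrocyte-like clusters, whose median depths were 0.293 and 0.302 of those of their libraries, would have stayed unnamed. The larger microglia-like cluster scored 7.15 for microglia and 6.55 for border macrophage or monocyte markers. UMIs were summed per class and library and scaled to CPM, with exact Poisson intervals, exact conditional binomial intervals for ratios and Clopper-Pearson intervals for shares, all at 95%. PCR and sampling error between animals are not in them. In medians a sum under 3 UMIs was set to 3. The members and gene lists were chosen with earlier results of these data known. Named besides the members were the 3 most abundant genes of each lysosomal group in microglia-like nuclei, the 3 genes most like each member, and the 6 reactive genes, except that 2 genes are not reported here. In all, 15 planned and 3 added alternatives were tried.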

Additional observations from a re-analysis of the deposited data

How the results depend on the processing

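No paired analysis was possible because each group was 1 library. Under the alternatives 144 values of the member medians stayed within their counting interval, 3 left it and no called value changed sign. Of the single values 350 stayed and 73 moved, among them 35 shares without thinning, 24 with thinning to 2000 UMIs, and member ratios in microglia-like nuclei, 8 in nuclei of more than 2000 UMIs, 4 in thinned nuclei, 1 with merged libraries and 1 without nuclei with a macrophage or monocyte marker. Over the members in glutamatergic-neuron-like nuclei, the median log2 ratio at day 1 was -0.097 with more doublets removed and 0.76 with every nucleus thinned to 1000 UMIs, and at day 3 it was -0.64 with 10% of UMIs subtracted as free RNA, the cause of which was not tested. In microglia-like nuclei the median ranged from -0.38 to 0.22 at day 1, from 0.41 to 0.84 at day 3 and from 0.18 to 0.62 at day 7, so that its sign at day 1 depended on the setting. In free RNA its 3 alternatives gave 0.81 to 0.84 at day 3, all above the reported 0.76. The 3 alternatives without the smaller microglia-like cluster, without nuclei with a macrophage or monocyte marker, and with free RNA taken from droplets above 100 and up to 1000 UMIs were chosen after seeing the data. Depth limits Ctsl and Grn most, with 19 and 24 UMIs in their lowest microglia-like sums.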
